A study of Mus musculus with 18 samples.

Results

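GL261 tumours grown in the brains of immunocompetent mice until the hosts became symptomatic were compared with the same GL261 cells kept in culture. The 3 tumour arrays and the 2 cell arrays were chosen by their labels, and no measured value entered the choice, so 5 of the 18 arrays of the series carry the comparison. GL261 is a mouse glioma cell line that grows in C57BL/6 mice, the strain it came from. The tumour arrays hold RNA of tumour tissue from wild-type (WT) C57BL/6 hosts, with 6 mice in the group and RNA of 2 or 3 mice pooled on each array. The cell arrays hold RNA of GL261 cells from culture in a serum-supplemented medium, and the labels do not say whether the 2 arrays came from separate cultures. Tumours of symptomatic Pfp/Rag2 -/- hosts (3 arrays, 6 mice), which lack perforin and the Rag2 recombinase and so have no mature T or B cells, and healthy mouse brain (2 arrays) were used for reference. The remaining 8 arrays hold tumours of both kinds of host on days 7 and 14 after injection, and they entered the normalization, the choice of genes detected on enough arrays to be tested and the estimate of the spread, but no comparison. The labels state neither age nor sex of the mice, and all tumours derive from 1 cell line.

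A cultured glioma line is a nearly pure population, whereas a tumour in the brain also contains microglia, infiltrating monocytes and lymphocytes, vessels and the surrounding neural tissue. Interferon-gamma, which is made by T cells and natural killer cells, induces antigen presentation genes in many cell types. They include the MHC class I chains, the immunoproteasome and, through the transactivator Ciita, the MHC class II genes. Removal from plastic and serum also changes the adhesion, matrix and growth factor environment of the tumour cells. In whole-tissue RNA, a change in the number of cells of a type and a change in RNA per cell cannot be told apart, and this holds for every difference below.

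Expression was read on Illumina MouseWG-6 v2.0 bead arrays, and levels are given as normalized log2 signals after background correction with the negative control probes. The median probe signal lay at 66.9 and 67.5 on the cell arrays and between 97.3 and 101 on the tumour arrays, and 32.7% to 36.5% of probes were detected at p under 0.01. The 2 cell arrays correlated at r = 0.994 across genes and the 3 tumour arrays at 0.983 to 0.992, so tumour array 1 lay somewhat apart from arrays 2 and 3. The p-values measure the spread between arrays, that is, between pools of mice or RNA samples of the cells, and not between single mice.

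Of 14322 genes tested with limma, 4790 passed an adjusted p under 0.05, which is 33.4% of those tested. The 2437 genes higher in tumours made up 17% and the 2353 genes lower in tumours 16.4%. Counts of list members below are to be read beside these shares. The difference was at least 2-fold for 1352 of the higher and 697 of the lower genes. All 3 tumour arrays lay above both cell arrays for 30.1% of genes and below both for 31.2%, and the median log2 difference over all genes was -0.02. Detection itself changed for many genes: 835 called genes were detected on every tumour array and neither cell array, and 189 on both cell arrays and no tumour array. The even split between higher and lower genes depends on scaling the arrays to each other, since 91.2% of called genes were higher when the background-corrected signals were left unscaled and 94.8% when the deposited series matrix values were used; the median of all genes then moved to 0.43 and 0.66.

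**Figure D1:**
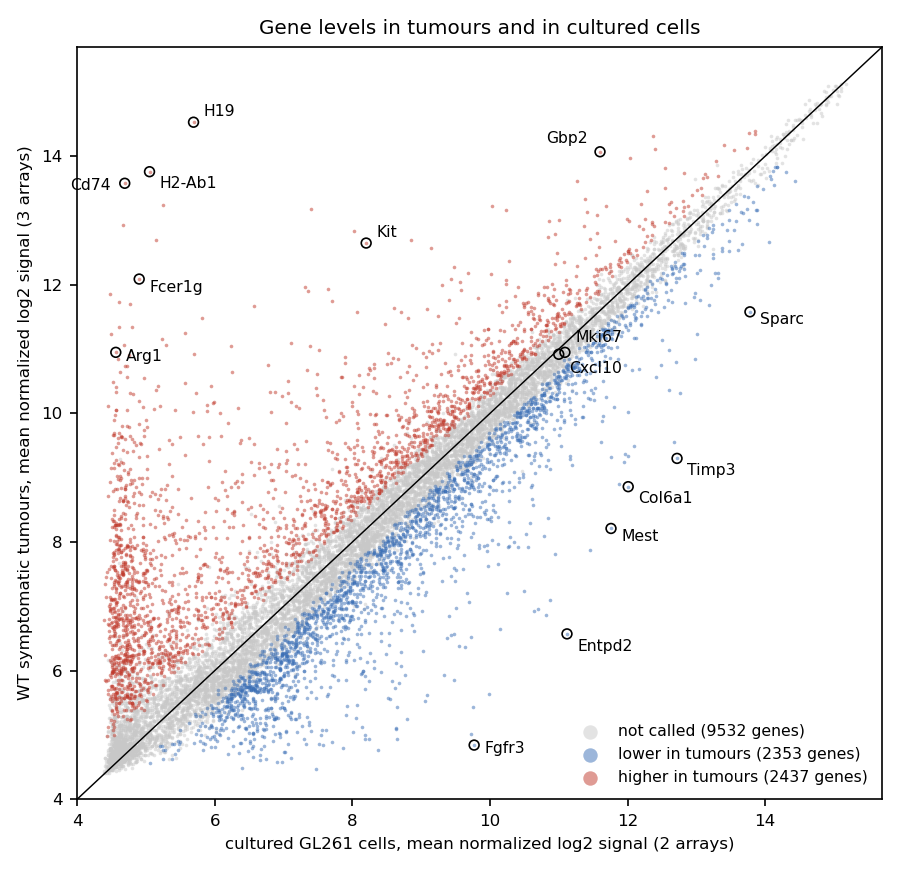
Mean normalized log2 signal of each of 14322 genes in 2 arrays of cultured GL261 cells (x axis) and 3 arrays of WT symptomatic tumours (y axis), coloured by the limma call. The dense column of higher genes at the left edge holds genes at background in the cultured cells; Arg1, Cxcl10 and Mki67 were labelled after their values were seen.

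Genes of MHC class II presentation rose together. All 11 members measured were higher in tumours, with a median log2 difference of 4.05, and all 11 had every tumour array above both cell arrays, against backgrounds of 17% and 30.1% of all genes. The class II molecule is a pair of an alpha and a beta chain that presents peptides to CD4+ T cells. The genes of these chains lie on chromosome 17, and the proximal promoter of such genes is known to carry an X box and a Y box that recruit the complex on which Ciita acts. RefSeq promoters (GRCm38.p6) were at hand for 8 of the 11 members, with 9 promoters between them; H2-Ab1, Cd74 and Ciita had no entry. Within the 250 bases before the start, a Y box of the letters TGATTGG occurred in 6 members and an X box of the letters AAC and ATGATG with any 2 bases between them in 4 members, on either strand, while 7.23% and 0.119% of 32851 mouse promoters held the same letters. The motif letters were chosen with these promoters in view, so the counts describe them and test nothing. The last 130 bases before the start are shown for H2-Aa (chr17:34287824-34287953, minus strand), H2-Eb1 (chr17:34305737-34305866, plus strand), H2-DMb1 (chr17:34153061-34153190, plus strand) and H2-DMb2 (chr17:34145119-34145248, plus strand), because these genes rose together; capitals mark the X box, where present, and the Y box.
H2-Aa: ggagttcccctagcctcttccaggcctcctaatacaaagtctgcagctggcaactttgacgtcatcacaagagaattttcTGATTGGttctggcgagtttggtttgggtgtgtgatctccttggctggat
H2-Eb1: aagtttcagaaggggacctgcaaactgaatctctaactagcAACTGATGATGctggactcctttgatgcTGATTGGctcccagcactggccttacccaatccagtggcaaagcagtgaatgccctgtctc
H2-DMb1: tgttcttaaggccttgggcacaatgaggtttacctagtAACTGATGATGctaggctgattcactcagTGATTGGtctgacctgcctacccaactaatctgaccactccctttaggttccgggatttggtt
H2-DMb2: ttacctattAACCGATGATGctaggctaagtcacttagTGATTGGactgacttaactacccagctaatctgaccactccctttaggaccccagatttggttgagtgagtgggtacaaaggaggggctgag
The Y box began 50 bases before the start in H2-Aa, 61 in H2-Eb1, 63 in H2-DMb1 and 92 in H2-DMb2.

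The chains themselves were at background in culture and far above it in tumours. H2-Ab1, the beta chain of the A molecule, read 4.79 and 5.31 in cells and 13.26, 13.94 and 14.08 in tumours. Cd74, the invariant chain that escorts class II molecules, read 4.78 and 4.60 in cells and 13.02, 13.95 and 13.77 in tumours. The groups were far apart for both genes, with tumour array 1 the lowest of the 3. Because a probe at background gives only a bound, the tumour mean was set against the lowest signal among detected probes on each cell array, or the probe's own signal where that was higher, which gave at least 184-fold for H2-Ab1 (adjusted p = 9.9e-10) and at least 162-fold for Cd74 (8.6e-10). On the same basis H2-Eb1 was at least 103-fold and H2-Aa at least 44.9-fold higher in tumours, and a probe named LOC641240 in the files, which has no RefSeq name, at least 128-fold. All such bounds, here and below, hold for the main processing only. Among the alternatives the smallest log2 difference was 7.13 for H2-Ab1 and 7.16 for Cd74, short of their bounds. Ciita read 4.61 and 4.59 in cells and 8.80, 9.44 and 9.34 in tumours, at least 7.77-fold higher (adjusted p = 2.7e-09). Its level was also at background in healthy brain (mean 4.62) and in the tumours of Pfp/Rag2 -/- hosts (mean 4.75). The peptide-loading genes differed in that the cultured cells already had signal: H2-DMa read 7.68 and 7.72 in cells and 11.34, 11.94 and 11.97 in tumours, a log2 difference of 4.05 (SE 0.23, adjusted p = 2e-08). H2-DMb1 and H2-DMb2, at 2.69 and 2.53, are near-identical genes whose probes may share signal. H2-Ob passed narrowly (0.47, adjusted p = 0.049) while at background on all 5 arrays; these 3 were named after their values were seen.

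MHC class I presentation rose in 16 of 17 measured members, with a median log2 difference of 2.22, and the remaining member, Psme2 of the proteasome activator, read -0.37 (adjusted p = 0.12). Psmb9, a catalytic subunit of the immunoproteasome, read 9.2 and 9.07 in cells and 12.59, 12.60 and 12.51 in tumours, a difference of 3.43 (SE 0.16, adjusted p = 2.3e-09). H2-T23, a non-classical class I chain, read 10.04 and 10.01 in cells and 12.89, 13.37 and 13.39 in tumours, a difference of 3.19 (adjusted p = 1.3e-08). Neither gene had overlapping groups, and both had clear signal in culture, unlike the class II chains. H2-Q7 rose by 2.99 and H2-Q6, at background in culture, by at least 3.12-fold, but class I chains are close paralogs and their probes may share signal. B2m, the common light chain, had high signal in culture, with 13.91 and 13.79, and rose by 0.50 (adjusted p = 0.0016); Psme2 and B2m were named after their values were seen.

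Of 15 measured genes of the interferon-gamma response, 14 were higher in tumours, with a median log2 difference of 1.94. Gbp2, an interferon-induced GTPase, read 11.60 on both cell arrays and 13.96, 14.10 and 14.14 in tumours, a difference of 2.47 (SE 0.12, adjusted p = 3.6e-09). Cd274, which encodes the checkpoint ligand PD-L1, read 7.40 and 7.62 in cells and 10.92, 11.01 and 11.01 in tumours, a difference of 3.47 (SE 0.14, adjusted p = 9e-10). The tumour arrays lay close to each other for both genes, well above the cell arrays. Ubd, a ubiquitin-like modifier, was at background in cells with 4.83 and 4.98 and read 9.73, 10.41 and 10.43 in tumours (adjusted p = 2e-09). Irf8, a transcription factor of myeloid cells, was at least 10.5-fold higher. Cxcl10, looked at because it was the only measured member that did not pass, was high in both groups, with 11.05 and 10.96 in cells and 10.48, 11.33 and 10.94 in tumours (adjusted p = 0.8). Its relative Cxcl9, also a ligand of the chemokine receptor Cxcr3 of T cells, read 4.70 on both cell arrays and 10.06, 11.22 and 10.95 in tumours, at least 22.7-fold higher (adjusted p = 5.6e-09). Checkpoint and immune suppression genes were higher for 10 of 12 members and lower for 1, Cd80, with a median of 2.64. Cd86, Vsir and Havcr2 were at background in culture and at least 7.52-fold, 2.40-fold and 3.31-fold higher in tumours. Arg1, an arginine-degrading enzyme of myeloid cells singled out after its values were seen, read 4.68 and 4.44 in cells and 11.85, 10.14 and 10.84 in tumours, at least 26.1-fold higher (adjusted p = 1.8e-05).

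Type I interferon response genes did not follow the same pattern. Of 16 measured, 5 were higher and 3 lower, with a median log2 difference of 0.04. The cultured cells already carried high levels of several of them: Ifit3 read 13.10 and 13.11, Usp18 12.57 and 12.52 and Rsad2 11.54 on both arrays, while healthy brain had means of 9.53, 6.91 and 5.65; these 3 were named after their values were seen. Among the 4 members with the smallest p, Oasl1 rose by 1.31 (adjusted p = 0.00043), Stat2 by 0.86 and Oas3, at background in cells, by at least 1.31-fold, while Mx2 fell by 0.65 (adjusted p = 0.0014). The split of this list depends on the scaling: 9 were higher and 0 lower on unscaled signals, 10 and 0 on series matrix values, and the difference of Mx2 was then 0.01 on the latter. Batf2, an interferon-inducible transcription factor, was among the largest rises with signal in both groups, reading 6.88 and 6.67 in cells and 10.42, 10.96 and 10.88 in tumours, a difference of 3.98.

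**Figure D2:**
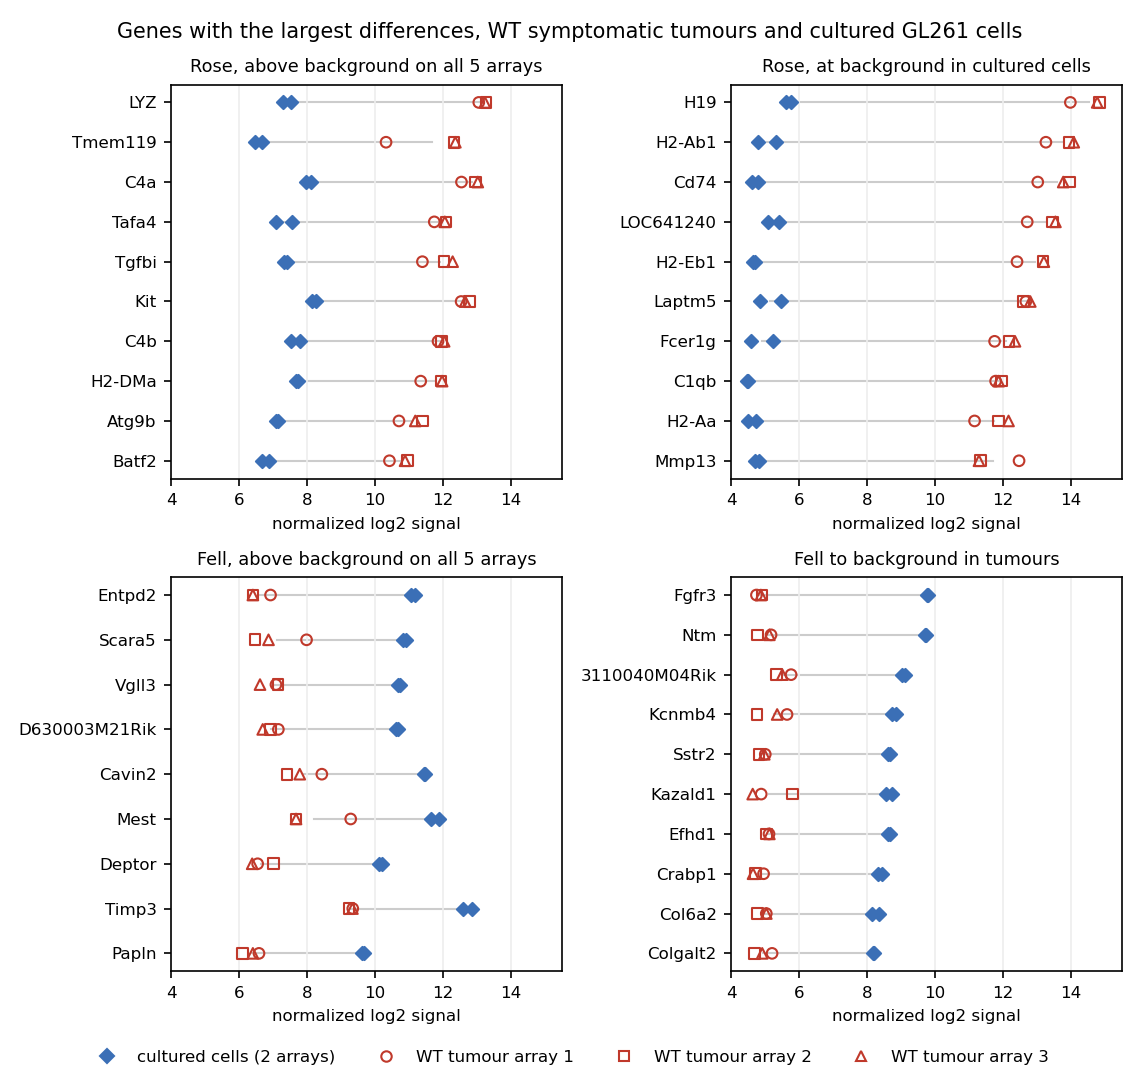
Normalized log2 signal (x axis) on each of the 2 cell arrays (diamonds) and 3 tumour arrays (circle, square, triangle) for the genes with the largest differences in each of 4 classes. The rule that chose these genes required groups that do not overlap. Tumour array 1 sits apart from the other 2 for Tmem119, Scara5 and Mest.

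Myeloid genes formed the other block of large rises. Of the microglia markers 13 of 15 were higher, of the macrophage and monocyte markers 12 of 13, and of the Fc and paired immune receptors 10 of 10, with median log2 differences of 3.88, 4.15 and 4.31 and no member lower. Fcer1g, the signalling chain of Fc receptors, read 4.59 and 5.22 in cells and 11.75, 12.17 and 12.35 in tumours, at least 57.8-fold higher (adjusted p = 1.1e-10). Laptm5, a lysosomal protein of blood cells, read 5.45 and 4.83 in cells and 12.67, 12.60 and 12.80 in tumours, at least 87.5-fold higher. Groups were far apart for both genes on every array. The activating IgG receptors Fcgr4 and Fcgr3 were at least 34.3-fold and 9.86-fold higher, and Clec7a, a receptor for fungal glucans, at least 10.8-fold. The macrophage markers Adgre1 and Cd68 were at least 8-fold and 9.89-fold higher and Csf1r, the receptor for macrophage growth factor, at least 8.72-fold. Microglial Fcrls, Aif1 and Tyrobp rose by at least 12.6-fold, 9.7-fold and 7.42-fold, and Olfml3, with signal in both groups, by 2.68 (SE 0.15).

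Tmem119, a marker of resident microglia, read 6.67 and 6.47 in cells and 10.32, 12.32 and 12.36 in tumours, a difference of 5.10 with a large SE of 0.67 (adjusted p = 5.6e-05). Tumour array 1 lay well below the other tumour arrays for this gene, and its summed microglia signal was 120% of that of healthy brain against 187% and 195% on arrays 2 and 3. That sum includes Tmem119 and is not a separate measure. Fcrls, Aif1, Tyrobp and Olfml3 were also lowest on array 1, but by less. Tyrobp read 9.09, 9.10 and 9.19 and Fcrls 9.46, 9.90 and 10.30 on arrays 1 to 3. Healthy brain had a mean of 8.23 for Tmem119, below every tumour array, and of 10.96 for Fcrls, above every tumour array. For Aif1, Tyrobp and Olfml3 the brain means of 7.09, 7.33 and 8.84 lay below the tumours. A probe named LYZ in the files, which could not be assigned to one of the mouse lysozyme genes, had the largest rise among genes with signal on all 5 arrays, with 7.52 and 7.29 in cells and 13.05, 13.26 and 13.23 in tumours (5.78, adjusted p = 9e-10). Lyz2, the myeloid lysozyme, was measured by another probe and was at least 21.2-fold higher. Genes often taken as myeloid did not all separate the groups: Lgals3 read 13.43 and 13.46 in culture and 13.59, 13.32 and 13.47 in tumours, and Gpnmb 13.98 and 14.19 against 14.35, 14.26 and 14.31. These 2 were named after their values were seen. Among lipid-associated myeloid genes 7 of 12 were higher and 1, Cd9, lower, with Trem2, Apoe, Lpl and Cst7 at least 6.4-fold, 25.9-fold, 6.71-fold and 2.37-fold higher. Means in healthy brain lay above those in tumours for Apoe (11.97 against 10.93) and Lpl (11.57 against 8.98). They lay below for Trem2 (7.94 against 8.92) and Cst7 (5.21 against 7.48).

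All 10 complement genes measured were higher in tumours, with a median log2 difference of 4.47. C1qb, a subunit of the recognition molecule of the classical pathway, read 4.46 and 4.48 in cells and 11.78, 11.95 and 11.87 in tumours, at least 49.4-fold higher (adjusted p = 1.6e-10). C1qc was at least 34.3-fold higher, and C2 rose by 3.84 (SE 0.16, adjusted p = 1.4e-09). C4a and C4b, near-identical copies of another component, rose by 4.81 and 4.30, and what each probe reads of the other gene was not tested. Among cathepsins and lysosomal genes, 10 of 14 were higher and 1 lower, with a median of 0.68, but the size of the change varied widely. Ctsc read 4.54 and 4.44 in cells and 11.02, 11.28 and 11.39 in tumours, at least 31.8-fold higher (adjusted p = 1.2e-11), and Ctss was at least 5.13-fold higher. Ctsb, by contrast, was abundant in both, at 12.75 and 12.85 against 13.31, 13.15 and 13.43, and rose by 0.50 (adjusted p = 0.034); it was named after its values were seen. Ctsh rose by 1.9.

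Lymphocyte genes rose too. Of the T cell markers 10 of 14 were higher, and of the natural killer and cytotoxic genes 5 of 7, with medians of 1.53 and 1.64. Cd3g read 4.66 and 4.73 in cells and 7.68, 7.95 and 8.10 in tumours, at least 3.19-fold higher (adjusted p = 2.5e-07), and Cd3d, Cd3e and Cd8b1 were at least 2.94-fold, 2.21-fold and 3.10-fold higher. Tumour array 1 was the lowest and array 3 the highest for each of these 4 genes. In symptomatic tumours of Pfp/Rag2 -/- hosts, Cd3g was detected on all 3 arrays, with a mean of 6.33. There Cd3d, Cd3e and Cd8b1 were detected on no array, with means of 4.67, 4.69 and 4.72. Cytotoxic Nkg7 and the receptors Klrk1 and Klrd1 were at least 3.30-fold, 1.69-fold and 2.96-fold higher. Ifng, the interferon-gamma gene itself, read 4.64 and 4.55 in cells and 5.78, 6.22 and 6.56 in tumours, a difference of 1.59 (SE 0.30, adjusted p = 0.001), and was detected on 2 of 3 tumour arrays. Among B and plasma cell genes 2 of 4 were higher: Igkc, the kappa light chain, at least 4.77-fold (5.19 and 5.07 in cells, 7.29, 9.14 and 9.04 in tumours) and Ighm by 1.71, whereas Cd79b and Mzb1 were at background on all arrays of both groups. Ighm was detected on 2 of 3 tumour arrays, and its mean of 6.21 in tumours lay below that of 7.11 in healthy brain. Neutrophil markers gave 2 of 4 higher. Lcn2, an iron-siderophore-binding protein, was at least 14.1-fold higher, Retnlg spread from 5.01 to 8.65 over the tumour arrays, and S100a8 and S100a9 did not pass (adjusted p = 0.43 and 0.41). Retnlg lost its call without either cell array and without tumour array 1 or 3, with log2 differences between 1.41 and 2.33, and of 4 measured dendritic cell markers Itgax passed, by 0.88 (adjusted p = 0.013), with detection on 1 of 3 tumour arrays, while Fscn1, Zbtb46 and Ccr7 did not.

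Chemokines were higher for 9 of 14 members and lower for none, with a median of 1.97. Cxcl16, a membrane-anchored ligand, read 4.95 and 5.33 in cells and 10.13, 10.37 and 10.57 in tumours, at least 17.4-fold higher (adjusted p = 1.6e-10). Ccl4 was at least 15.2-fold and Ccl3 at least 2.30-fold higher. All 9 leukocyte integrin and adhesion genes measured were higher, with a median of 0.95, led by the actin-binding Coro1a (at least 13.9-fold) and Selplg (at least 5.09-fold), while Itgb2, at least 1.03-fold higher, was barely above background. Of 20 genes of death receptor and cytokine signalling, 11 were higher and 3 lower. Casp1, the inflammasome protease, read 8.07 and 8.06 in cells and 11.30, 11.68 and 11.74 in tumours (3.50, adjusted p = 2e-08), Stat3 rose by 1.43, and Il1b and Tnfrsf1b were at least 7.97-fold and 1.42-fold higher.

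Vessel genes rose as well. Of 15 endothelial markers measured, 13 were higher and none lower, with a median of 2.29. Cldn5, the tight junction protein of brain endothelium, read 4.45 and 4.46 in cells and 10.08, 10.23 and 10.05 in tumours, at least 14.7-fold higher (adjusted p = 6e-10). Esam, Emcn and Vwf were at least 10.5-fold, 6.88-fold and 8.85-fold higher. The 3 tumour arrays were close to each other for these genes, and the summed endothelial signal was 98.3% ± 5.42 (SD, n = 3) of that of healthy brain in tumours against 33.6% ± 1.06 (SD, n = 2) in cells. Pericyte markers moved less, with 3 of 8 higher and a median of 0.53: Notch3 rose by 1.09, Rgs5 by 1.37 and Cspg4 by 0.56, and Pdgfrb, at background on all 5 arrays, did not pass (adjusted p = 0.05). Notch3 and Rgs5 were detected on 2 of 3 tumour arrays. The summed pericyte signal went the other way. It was 496% ± 25.1 (SD, n = 3) of that of healthy brain in tumours against 629% ± 24 (SD, n = 2) in cells. Among angiogenic ligands 5 of 10 were higher and 2 lower. Vegfa, the main vessel growth factor, read 9.79 and 9.65 in cells and 11.33, 10.79 and 10.60 in tumours (1.19, adjusted p = 0.00014), Pdgfb and Adm were at least 4.23-fold and 1.05-fold higher, and Angpt2 fell by 0.70, a call that did not hold on unscaled signals (-0.33).

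Markers of neural tissue were measured beside those of the tumour. The summed signal of neuron markers was 3.8% ± 0.868 (SD, n = 3) of that of healthy brain in tumours against 0.482% in cells, and 4 of 10 measured members were higher. Thy1 was at least 10.7-fold, Gad1 at least 3.12-fold and Stmn2 at least 1.6-fold higher, and Syt1 rose by 3.66, all 4 with levels in healthy brain above those in tumours. Several oligodendrocyte genes had signal in the cultured line itself, for example Sox10 at 13.73 on both cell arrays and Cldn11 at 13.23 and 13.25, named after their values were seen. Of 9 measured, Mog (at least 3.28-fold), Mag (at least 5.66-fold), Opalin (at least 1.70-fold) and Cnp (1.26) were higher and 2 were lower. Astrocyte markers were higher for 6 of 12, among them Sox9 and Aqp4 (at least 9.17-fold and 4.36-fold), and lower for 2. Choroid plexus signal was uneven, at 1.25%, 0.707% and 26.5% of healthy brain on tumour arrays 1 to 3. Ttr, its thyroid hormone carrier, read 7.84, 6.86 and 13.15 in tumours (adjusted p = 0.074), and Clic6 was at least 2.53-fold higher, a call lost when either cell array or tumour array 1 or 3 was left out (log2 differences from 2.15 to 3.09), whereas Kcne2 and Kl did not pass. Red blood cell signal was 234%, 146% and 60.2% of healthy brain on the 3 arrays, with Hba-a1 at least 30.4-fold higher than in cells and Alas2 up by 1.07. Alas2 was detected on 1 of 3 tumour arrays. The part of these tissues in the differences of other genes was not tested.

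H19, Kit and Tafa4 were among the largest rises. H19, an imprinted long noncoding RNA on chromosome 7, read 5.61 and 5.77 in cells and 13.98, 14.84 and 14.77 in tumours, at least 314-fold higher (adjusted p = 1.6e-10) and first among the genes ranked by this bound. Its mean in tumours of Pfp/Rag2 -/- hosts was 15.04 and in healthy brain 4.95, so it was at background in both culture and brain. A further H19 probe gave a log2 difference of 8.35. Kit, the stem cell factor receptor on chromosome 5, read 8.15 and 8.25 in cells and 12.53, 12.78 and 12.65 in tumours, a difference of 4.46 (SE 0.17, adjusted p = 6.1e-10). Tafa4, a secreted chemokine-like protein, read 7.54 and 7.09 in cells and 11.74, 12.09 and 12.05 in tumours, a difference of 4.65 (adjusted p = 1.2e-09). For both genes the tumour arrays lay above the healthy brain means of 10.22 and 8.67 and close to the means of 12.60 and 11.91 in tumours of Pfp/Rag2 -/- hosts. Among 9 imprinted genes measured 4 were higher and 2 lower. Mest, a paternally expressed hydrolase-like gene, moved opposite to H19, from 11.63 and 11.88 in cells to 9.28, 7.67 and 7.67 in tumours (-3.55, adjusted p = 6.4e-06), and its other probes gave -3.77 and -4.01. Igf2r and Ndn were at least 1.26-fold and 3.24-fold higher, and the level of Ndn in healthy brain was 12.43. Of the receptor tyrosine kinases and neurotrophin receptors 6 of 17 were higher and 2 lower, with Erbb2 falling by 1.53 (adjusted p = 4.3e-06) and Ntrk2 at least 4.37-fold higher.

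**Figure D3:**
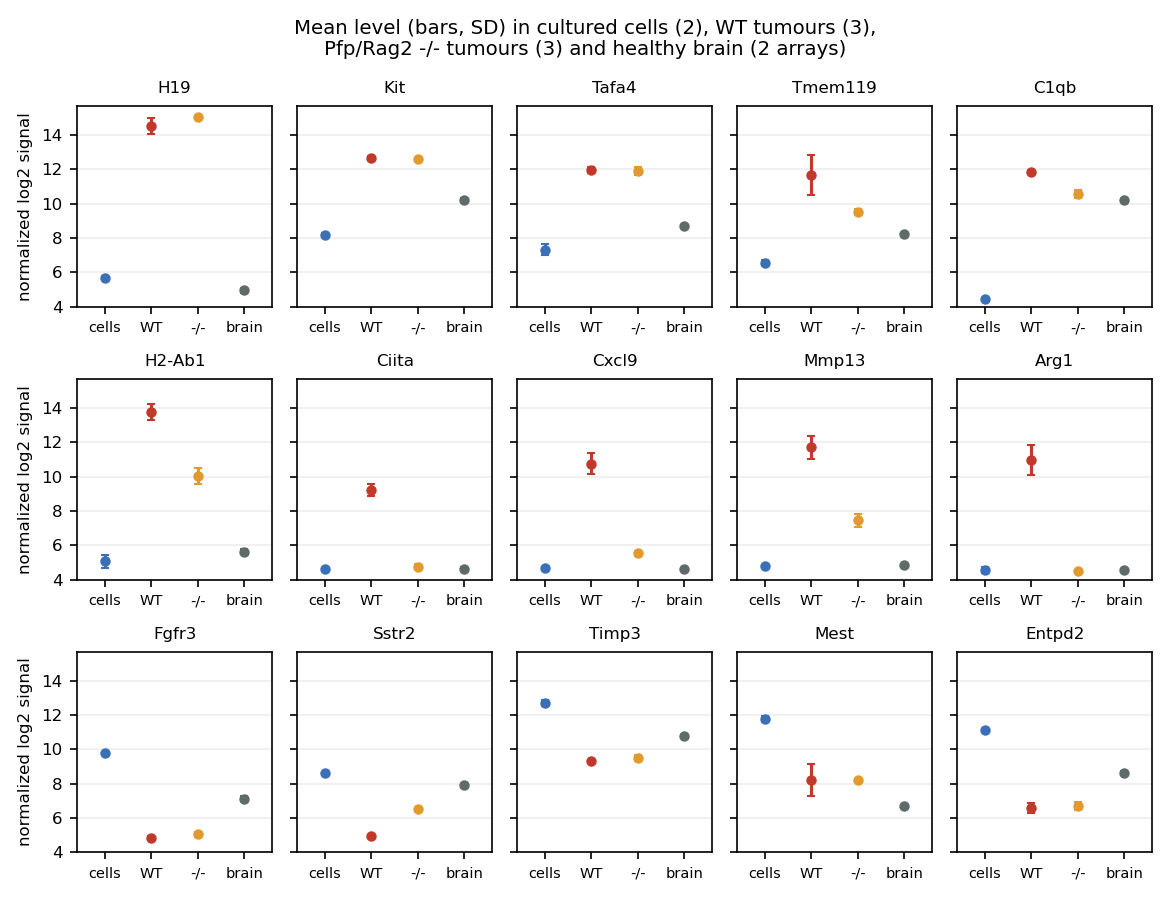
Mean normalized log2 signal with SD (y axis) of 15 genes in cultured cells, WT tumours, Pfp/Rag2 -/- tumours and healthy brain. H19, Kit and Tafa4 are above cells and brain in both kinds of tumour, and H2-Ab1, Ciita, Cxcl9, Mmp13 and Arg1 are highest in WT tumours; Arg1 was drawn after its values were seen.

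The largest losses were of genes abundant in culture. Entpd2, a surface enzyme that hydrolyses ATP, read 11.18 and 11.05 in cells and 6.92, 6.40 and 6.40 in tumours, a log2 difference of -4.55 (adjusted p = 2.9e-07). Fgfr3, a fibroblast growth factor receptor, read 9.78 and 9.76 in cells and was at background in tumours with 4.74, 4.90 and 4.87, at least 14.5-fold lower (adjusted p = 1.6e-10). Both groups were tight for Fgfr3, and its mean in healthy brain was 7.14, above that in tumours. A second Fgfr3 probe gave a smaller log2 difference of -1.80. Ntm, a neural adhesion molecule, was at least 14-fold lower, Kcnmb4, a potassium channel subunit, at least 7.34-fold, Sstr2, a somatostatin receptor, at least 6.69-fold, and Crabp1, a retinoic acid binding protein, at least 5.51-fold. Kazald1, Efhd1, Colgalt2 and 3110040M04Rik completed this group, at least 6.63-fold, 6.58-fold, 4.85-fold and 8.89-fold lower. Some alternatives gave smaller log2 differences that fall short of these bounds. The smallest were -1.41 for Crabp1, -1.48 for Efhd1, -1.57 for Sstr2 and -1.58 for Kcnmb4.

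Scara5, a ferritin receptor, read 10.83 and 10.92 in cells and 7.98, 6.46 and 6.86 in tumours (-3.77). For this gene and for Mest, tumour array 1 kept more signal than arrays 2 and 3, though it stayed below both cell arrays. Vgll3, a cofactor of TEAD transcription factors, fell by 3.76, Cavin2, a component of caveolae, by 3.59, Deptor, an inhibitor of mTOR, by 3.51, Papln by 3.29 and D630003M21Rik by 3.72. All 40 genes chosen for the size of their difference kept their direction and call in every alternative that measured them.

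Collagen and basement membrane genes moved in both directions, with 4 of 16 higher and 8 lower and a median of -0.46; on the series matrix values the split was 6 and 3. Of type IV collagen, the network-forming collagen of basement membranes, Col4a1 read 4.66 and 4.79 in cells and 10.42, 10.67 and 10.63 in tumours, at least 20.2-fold higher (adjusted p = 1.8e-09), and Col4a2 was at least 12.7-fold higher. Of type VI collagen, Col6a1 read 11.96 and 12.05 in cells and 8.83, 8.79 and 8.96 in tumours, a difference of -3.15 (SE 0.11, adjusted p = 2.2e-10), and Col6a2 was at least 5.03-fold lower. The tumour arrays lay close to each other for all 4 chains, and no group overlapped. Col4a1 and Col4a2 had means of 9.04 and 8.93 in healthy brain, and the endothelial signal that moved with them is given above; its part was not tested. The fibrillar chain Col1a1 fell by 1.09 while Col3a1 rose by 1.51, the former not passing on unscaled signals and reading 0.01 on the series matrix values.

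**Figure D4:**
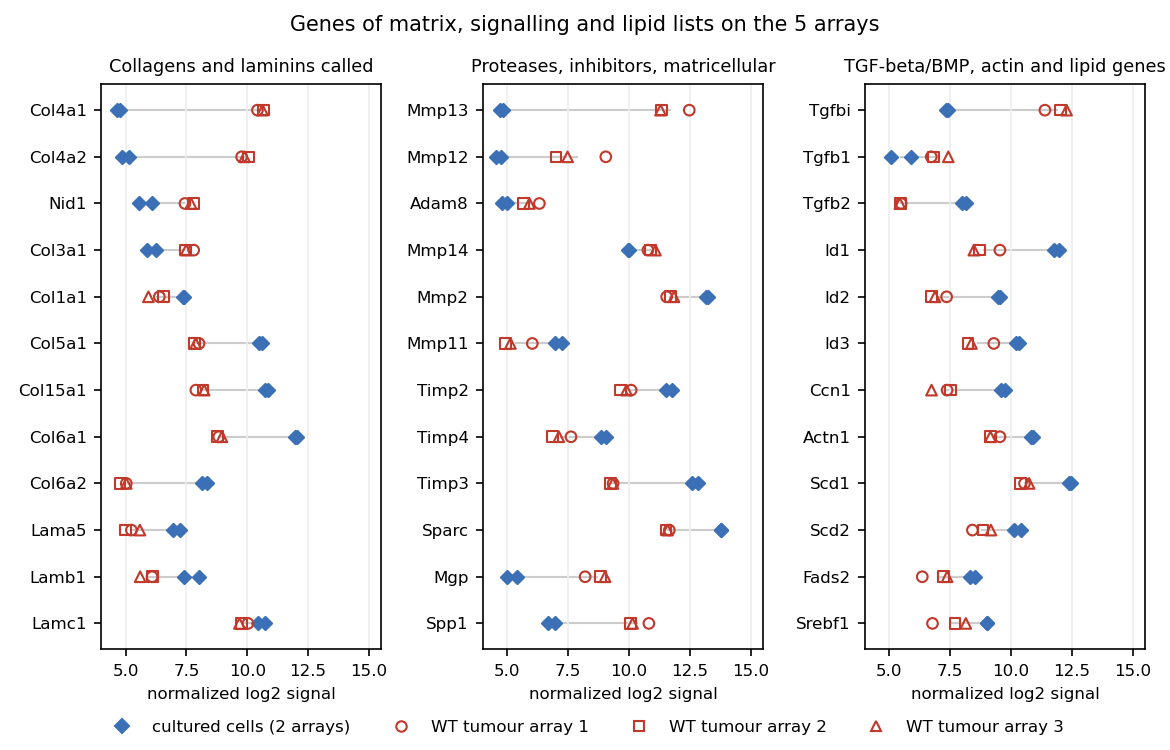
Normalized log2 signal (x axis) on the 2 cell arrays and 3 tumour arrays for the collagens, laminins and nidogen called, for selected proteases, inhibitors and matricellular genes, and for selected TGF-beta, BMP, actin and lipid genes. Type IV collagen chains lie to the right in tumours and type VI chains to the left; genes outside those named in the text were drawn after their values were seen.

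Matrix proteases and their inhibitors were higher for 4 of 16 and lower for 5, against 9 and 5 on unscaled signals. Mmp13, a collagenase, read 4.82 and 4.71 in cells and 12.47, 11.33 and 11.29 in tumours, at least 44-fold higher (adjusted p = 1.5e-07). Its probes disagreed, since the other 2 kept probes of Mmp13 gave 1.98 and -0.03 (adjusted p = 0.93 for the latter). Mmp2, a gelatinase abundant in culture at 13.14 and 13.22, fell by 1.49 (adjusted p = 0.00011). Of the tissue inhibitors, Timp3 read 12.59 and 12.84 in cells and 9.34, 9.23 and 9.33 in tumours, a difference of -3.42 (SE 0.15, adjusted p = 1.4e-09), and further Timp3 probes gave -3.75 and -1.53. Timp4 and Timp2 each fell by 1.76, and Timp1 did not pass (0.42, adjusted p = 0.17), the last 2 being named after their values were seen. Matricellular genes were higher for 6 of 14 and lower for 1. Sparc, a collagen-binding protein, read 13.77 and 13.78 in the cultured cells and fell by 2.20 to 11.65, 11.52 and 11.58 (SE 0.10, adjusted p = 2.7e-09). Spp1 (osteopontin) rose by 3.54, Mgp was at least 5.41-fold higher, and Vcan rose by 1.36, from background in cells to detection on 2 of 3 tumour arrays.

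The TGF-beta and BMP list was mixed, with 6 of 17 higher and 5 lower and a median of 0.03, against 8 and 4 on unscaled signals. Tgfbi, a secreted matrix protein named for its induction by TGF-beta, read 7.31 and 7.40 in cells and 11.39, 12.03 and 12.28 in tumours, a difference of 4.54 (SE 0.39, adjusted p = 9.1e-07). Among ligands, Tgfb2 was at least 4.45-fold lower in tumours and Tgfb1, named after its values were seen, at least 1.67-fold higher. The BMP-induced inhibitors of differentiation fell: Id1 read 11.97 and 11.78 in cells and 9.54, 8.69 and 8.47 in tumours (-2.97, adjusted p = 1.3e-06), Id2 fell by 2.52 and Id3, seen beside them, by 1.64. Tumour array 1 had the highest level of the 3 for each Id gene. Genes linked to YAP and actin showed no member higher and 6 of 13 lower, with a median of -0.68, but 1 higher and 4 lower on unscaled signals and 3 higher and 2 lower on the series matrix values. Ccn1, a matricellular YAP target, fell by 2.46 (adjusted p = 1.6e-06), the actin crosslinker Actn1 by 1.56, tropomyosin Tpm1 by 0.85 and vinculin, Vcl, by 0.92.

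Glioma progenitor and filament genes moved in both directions. Olig1, an oligodendrocyte lineage transcription factor, was high in culture at 12.46 and 12.34 and rose to 14.19, 14.03 and 14.09 (1.71, SE 0.10, adjusted p = 2.5e-08), and its relative Olig2 was at least 1.28-fold higher. The intermediate filament genes Nes and Vim fell by 1.54 and 1.04, while Krt8, a keratin of simple epithelia, was at least 10.5-fold higher, with 10.34, 9.86 and 8.70 on the tumour arrays, and Gfap, the astrocyte filament, at least 8.15-fold. Krt8 was the highest on tumour array 1 and Gfap the lowest there. Healthy brain had means of 6.75 for Krt8 and 9.72 for Gfap.

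Among metabolic lists, fatty acid synthesis showed 7 of 12 lower and none higher, with a median of -0.57, against 4 lower and 2 higher on unscaled signals. Scd1, a fatty acid desaturase, read 12.36 and 12.46 in cells and 10.55, 10.39 and 10.74 in tumours (-1.86, adjusted p = 3.9e-05). Scd2 fell by 1.46, Fads2 by 1.44 and the lipogenic transcription factor Srebf1 by 1.48. Fads2 and Srebf1 were the lowest on tumour array 1. Cholesterol synthesis had 2 of 20 higher and 2 lower, with Mvd and Hsd17b7 up by 0.73 and 0.47 and Mvk down by 0.83, and these 3 lost their call when either cell array was left out. Hypoxia and glycolysis genes were higher for 10 of 22 and lower for 1, Gapdh, which moved by -0.37 (adjusted p = 0.0099). Car9, a carbonic anhydrase induced by hypoxia, read 5.35 and 5.96 in cells and 9.23, 8.53 and 8.29 in tumours, at least 5.44-fold higher, and the glucose transporter Slc2a1 rose by 1.37 (adjusted p = 1.6e-05). Serine synthesis and ATF4 targets gave 1 of 15 higher and 2 lower, against 2 and 0 on unscaled signals, with Trib3 up by 1.12 and Phgdh and Chac1 down by 0.80 and 0.63, whereas Pycr1 did not pass (adjusted p = 0.051). Over all genes 17% were higher and 16.4% lower, and the cholesterol, serine and NRF2 lists lay near or below these shares. NRF2 targets gave 2 of 16 higher and 3 lower, against 9 and 1 on unscaled signals. Among them Nqo1 was at least 2.23-fold and Sod3 at least 1.51-fold lower, Gclm fell by 0.58 and Gpx1 rose by 0.35. Iron-handling genes were higher for 7 of 11 with none lower, among them Lcn2, given above, the iron exporter Slc40a1 (at least 7.03-fold), transferrin, Trf (1.56), and ferritin heavy chain, Fth1 (0.54).

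DNA replication genes had 0 of 27 higher and 2 lower, with a median of -0.01, and 14 were higher on unscaled signals. Mitotic and cyclin genes had 1 of 21 higher and 6 lower, with a median of -0.36, against 16.4% of all genes called lower. All 3 tumour arrays lay below both cell arrays for 15 of these 21 genes, against 31.2% of all genes. Ccnd1, cyclin D1, read 13.41 and 13.42 in cells and 14.36, 14.07 and 14.08 in tumours (0.76, adjusted p = 0.00017). Ube2c, Ccne2 and Ccne1 were at -1.11, -1.49 and -0.62, but Ube2c did not pass on unscaled signals (-0.48), nor did Ccne1 (-0.01), and 1 member was lower there. Mki67, a proliferation marker looked at after its value was seen, was at 10.96 and 11.22 in cells and 10.88, 10.90 and 11.08 in tumours (adjusted p = 0.65). In the replication list Tk1 fell by 0.77 and Orc1 by 1.03, the latter with a sign that turned on the series matrix values (0.11), while Rfc3 and Lig1 did not pass (adjusted p = 0.073 and 0.11). Of the cell cycle inhibitors and p53 targets 6 of 17 were lower and 2 higher; on unscaled signals 2 were lower and 10 higher. Gadd45b, a stress-induced gene, read 9.60 and 9.28 in cells and 6.80, 6.46 and 6.39 in tumours (-2.89, adjusted p = 2.2e-06), Phlda3 fell by 2.29, Cdkn2c by 0.70 and Gadd45a by 0.90.

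Of 14 cytosolic ribosomal protein genes none passed in either direction, with a median of 0.04 and Rps3, Rps2 and Rpl3 at -0.22, 0.12 and 0.11, although 11 were higher on unscaled signals. Oxidative phosphorylation had 1 of 17 lower, Ndufa4, which fell by 0.59, and none higher, with Cyc1, Ndufa9 and Ndufv1 at -0.23, 0.28 and 0.31. MYC-linked genes had 2 of 17 in each direction, under the 17% higher and 16.4% lower of all genes. On unscaled signals 8 of them were higher and 0 lower. Odc1, the first enzyme of polyamine synthesis, rose by 1.16 (adjusted p = 1.1e-05) and Rrp12 by 0.55, while Pes1 and Nme1 fell by 0.51 and 0.35. Chaperones had 5 of 18 lower and 1 higher, against 2 and 3 on unscaled signals, with Pdia6, Hsph1 and Dnajb1 falling by 0.99, 0.87 and 0.44, and Hspa1a passing at a level near background on all arrays. Immediate early genes had 7 of 12 higher and 2 lower: Jun, Zfp36 and Egr2 rose and Dusp1, a MAP kinase phosphatase, fell by 1.37 (adjusted p = 1.3e-06). Zfp36 rose by 1.07 and Egr2 by 0.98.

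**Figure D5:**
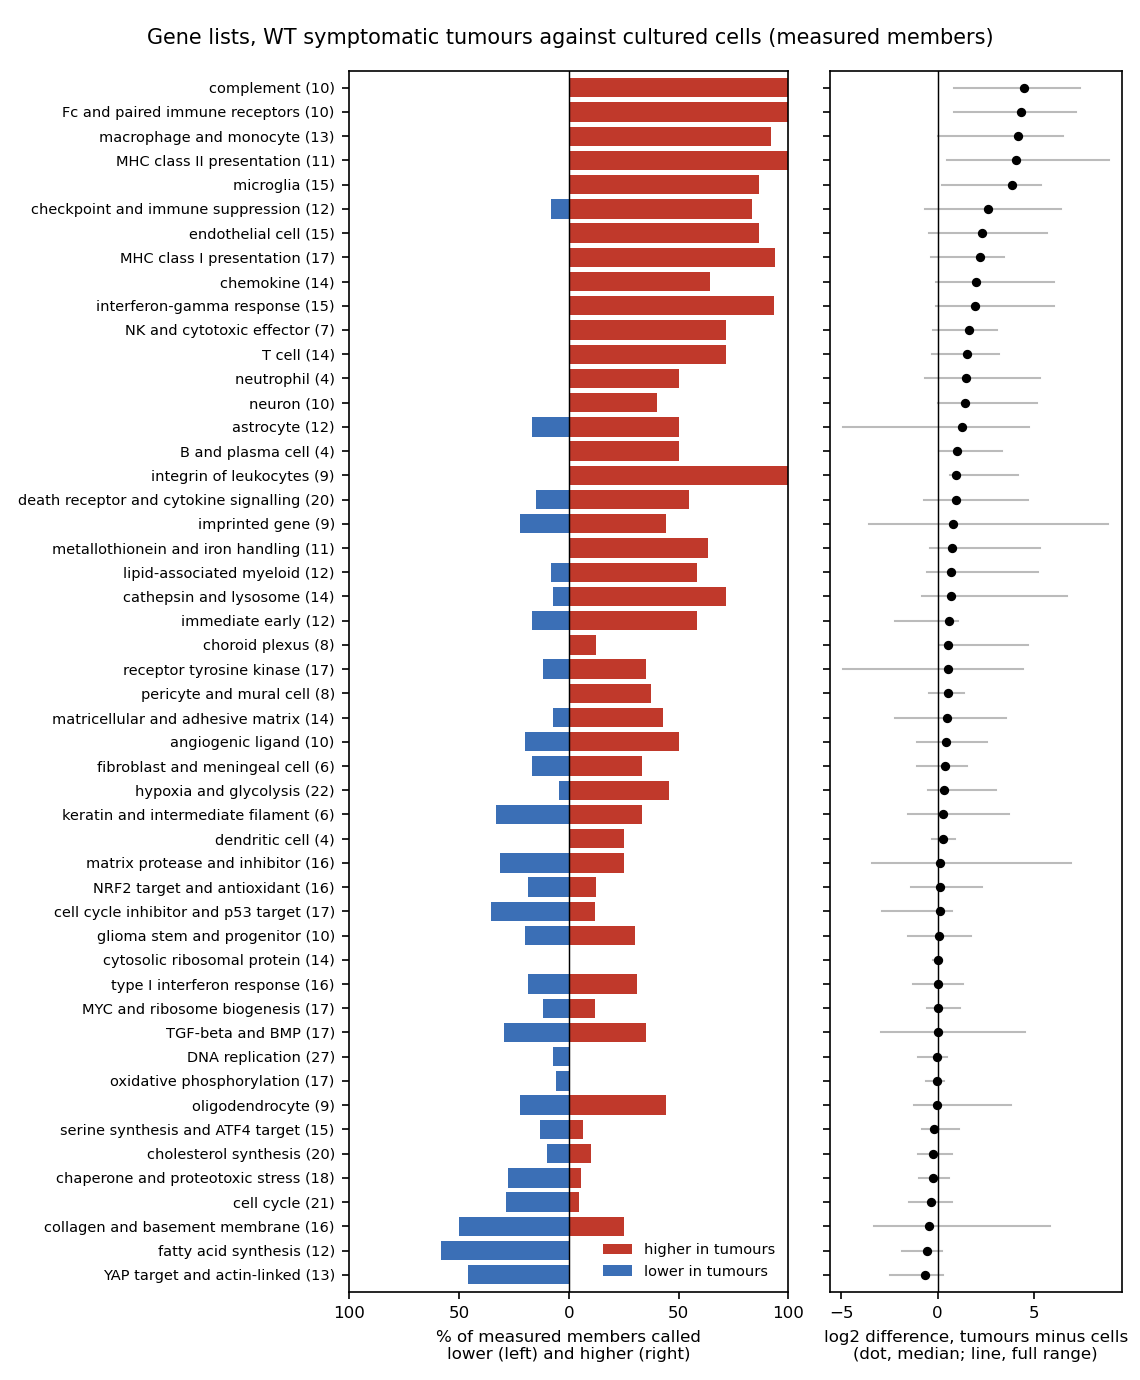
Share of measured members called higher or lower in WT tumours than in cultured cells (left, % of members) and median with range of their log2 differences (right), for lists with at least 4 measured members, whose number is in brackets. Complement, Fc receptor, class II and leukocyte integrin lists have every member higher, and fatty acid and YAP lists have members lower and none higher, though 2 and 1 of their members were higher on unscaled signals.

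Whether the change from culture differed with the host was asked by the test between WT and Pfp/Rag2 -/- symptomatic tumours, in which the cultured cells cancel. Over all genes 16.9% passed, 9.09% higher and 7.81% lower in WT hosts. Of the 20 rises named for their size, 17 were higher in WT than in Pfp/Rag2 -/- hosts, and H19 (-0.51, adjusted p = 0.19), Kit (0.05, adjusted p = 0.86) and Tafa4 did not pass. All 11 class II genes were higher in WT hosts, with H2-Eb1 apart by 4.44 (SE 0.30, adjusted p = 1.2e-06), H2-Ab1 by 3.73 and Ciita by 4.45. Levels of H2-Ab1 in cultured cells, Pfp/Rag2 -/- tumours and WT tumours were 5.05, 10.03 and 13.76 as means, so its probe had signal in both kinds of host. Of the interferon-gamma response genes 14 of 15 were higher in WT hosts, and of the class I genes 15 of 17, whereas of the type I interferon response genes 1 was higher and 7 of 16 lower. Of the 20 largest falls, 5 were lower in WT hosts and none higher: Sstr2 (-1.61, adjusted p = 0.004), Ntm, Col6a2, 3110040M04Rik and Colgalt2. The rises and falls named for size were chosen by values on the same WT arrays. Falls ranked by their bound also had to be at background on all of these arrays. Both counts are tilted by this choice, so they describe the chosen genes and are no test of the host. Among collagens, 1 of 16 was higher and 5 were lower in WT hosts. A gene that did not pass is not shown to be alike in both hosts.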

How the data were processed

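RNA of 18 samples was hybridised to Illumina MouseWG-6 v2.0 arrays. The authors deposited probe signal intensities for each array, with no background subtraction or scaling between arrays, and a gene table with the lowest, mean and highest signal intensity of each group, per the file headers. Their series matrix gives 10466 probes on a linear scale; on each array 99.6% to 100% of its values lay within 1% of the probe table. The probe table names no genes, so a gene was tied to the probe or set of up to 4 probes whose group values matched those of the gene table within 0.06 signal units. In all, 29738 of 30854 genes (96.4%) were linked, 21888 of them to 1 probe. Of 30854 decoys, 0 were linked to 1 probe. Decoys were not run for sets of 2, 3 or 4 probes, to which 5366, 1791 and 693 genes were linked. Names were updated through RefSeq (16223 by symbol, 3738 by synonym; 10893 kept the file's name).

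Negative controls were taken from the range of their probe numbers, leaving out 6 far above the rest, and detection computed from the 937 kept differed from the deposited group scores by a median of 0.0005 to 0.0063. Signals were background-corrected and quantile-normalized with neqc (limma 3.58.1, R 4.3.3, offset 16). A probe had to reach a detection p under 0.01 on 2 or more arrays, and the brightest such probe stood for its gene, which left 14322 genes. One linear model over all 18 arrays with a mean per group was fitted with lmFit and eBayes, and p-values were adjusted by Benjamini-Hochberg over all genes, with 0.05 as the threshold. On simulated data with 14122 of 14322 genes unchanged, 14.5%, 65.2% and 96.8% of log2 changes of 0.5, 1 and 2 were recovered. There were 8 false calls among the 14122 unchanged genes. The share of changed genes there was far below the 33.4% called between tumours and cells, and recovery at such a share was not tested. The small number of arrays limits the precision.

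Genes were named by rule: among called genes whose groups did not overlap, the 10 largest rises and 10 largest falls detected on all 5 arrays, the 10 largest bounds in each direction where 1 group was at background, and, in each list, the 4 measured members with the smallest p. The groups compared, the gene lists and the rules were chosen with earlier results of these data known. A few genes that meet the rule are not reported here. Genes outside the rule, said so beside them or named as exceptions of a count (Cd80, Cd9 and Gapdh among them), were chosen after their values were seen. Alternatives varied scaling, background correction, offset, filter, probe choice, model and each array. Same-numbered arrays of the 2 groups did not deviate together (correlations of -0.099 and -0.113), so no pairing by number was seen between them. The 2 cell arrays mirror each other about their mean, so the 2 correlations are not separate. Other groups were not checked. The link used numba 0.67.0 under Python 3.11.15, tables pandas 2.3.3 and numpy 2.4.6, and figures matplotlib 3.10.9.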

Additional observations from a re-analysis of the deposited data

Results flagged for a closer look

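Of the 40 genes chosen for the size of their change from culture, 22 differed between WT and Pfp/Rag2 -/- symptomatic tumours in the limma test of that difference, at an adjusted p under 0.05. The choice used the same WT arrays, which tilts this count and its directions. The log2 difference of WT over Pfp/Rag2 -/- tumours was 4.44 for H2-Eb1, 4.25 for Mmp13, 3.93 for Cd74, 3.79 for the unassigned LOC641240, 3.73 for H2-Ab1, 3.69 for H2-DMa and 3.39 for H2-Aa. It was 2.80 for Batf2 and 2.18 for Tmem119 (adjusted p = 0.025). Fcer1g, Tgfbi, C1qb, Laptm5 and LYZ were higher by 1.73, 1.64, 1.30, 1.19 and 1.14, and Atg9b, C4a and C4b by 0.90, 0.64 and 0.64. The other 5 were lower in WT tumours: Sstr2 by -1.61, Ntm by -1.02, Col6a2 by -0.91, 3110040M04Rik by -0.74 and Colgalt2 by -0.57. All 5 were at background on every WT tumour array, and Colgalt2 also on every Pfp/Rag2 -/- tumour array.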

How the results depend on the processing

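The 40 genes chosen for size kept direction and call in all 696 values computed under 18 settings. The size of their differences varied more, and some values fell short of the bounds given above. Of 3119 values for the 180 genes named from lists, 2923 kept both, 143 were no longer past the threshold, 37 newly passed and 16 changed sign. Leaving signals unscaled turned the counts of higher and lower genes from 2437 and 2353 to 6377 and 615, and the series matrix values gave 5212 and 287 among 7782 genes. Genes with 1 probe gave 2649 calls, 1318 higher and 1331 lower, among 8357 tested. Leaving out 1 array gave 3062 to 4601 calls, 1699 to 2311 higher and 1363 to 2290 lower, with the fewest calls without cell array 1 (3062, 1363 lower) and 1524 lower without cell array 2. A replicate block gave 4662 calls (2588 between hosts), although no pairing by number was seen in the 2 groups checked. Between hosts, 1-probe genes gave 1373 calls, 765 higher and 608 lower, series matrix values 354 lower, and leaving out 1 array 1595 to 2381 calls and 671 to 1132 lower, with 1595 and 671 without Pfp/Rag2 -/- array 2, 1597 and 694 without WT array 3 and 745 lower without Pfp/Rag2 -/- array 3, against 2420 calls and 1118 lower with all arrays. Signs changed on series matrix values for S100a8 (0.38), Mx2 (0.01), Col1a1 (0.01), Orc1 (0.11), Sod3 (0.10), Pes1 (0.02), Nme1 (0.13) and Rps3 (0.22), on unscaled signals for Nme1 (0.13), Rps3 (0.21), Cyc1 (0.20) and Zbtb46 (0.27), with probe means for Rps2 (-0.11), without tumour array 2 or cell array 2 for Mzb1 (-0.06 and -0.12) and without cell array 1 for Zbtb46 (0.01, with -0.56 without cell array 2). Fewer genes were tested on the series matrix values and with 1 probe a gene, and fewer arrays when 1 was left out; the cause of the other changes was not tested.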
